A study of Rattus norvegicus with 4 samples.

Results

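Transcripts of the regulators of G-protein signalling (RGS proteins) were followed in rat liver, on arrays of 1 pool of lean and 1 pool of obese WNIN/Ob rats. The set was a list of 10 genes, Rgs1, Rgs2, Rgs3, Rgs4, Rgs5, Rgs10, Rgs14, Rgs16, Rgs18 and Rgs19, each read from a probe set that the platform annotation gives to that gene alone. Of these 10, 9 were measured among the 14506 genes with such a probe set, and each of the 9 had a single one. Rgs10 shares its probe set with its neighbour Tial1, so no value is given for it. The genes were put on the list with the contrast between the pools in view, so every lean-to-obese value below is a description and none is a test.

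WNIN/Ob is an Indian rat strain of Wistar descent with a lean and an obese phenotype. The animals were 4-month-old males on stock diet, and neither phenotype received a treatment. RNA from the livers of 4 rats was mixed for each phenotype, and each of these 2 pools was hybridised to 2 Affymetrix rat gene arrays, called original and technical replicate in the labels. Both arrays of a pool carry the same RNA, so their spread is technical, there is no replicate check across animals, and the number of arrays limits the precision.

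RGS proteins end G protein signals. A receptor that binds its ligand loads GTP onto a G alpha subunit, and the RGS domain speeds the hydrolysis of that GTP, so that the subunit returns to its resting state. Most R4 proteins are small, consist of little more than this domain and act on the Gi and Gq classes. RZ proteins and R12 proteins such as Rgs14 join it to other domains or lipid anchors. In liver, glucagon acts mainly through Gs, and adrenaline, vasopressin and nucleotides act through Gq as well, so RGS proteins meet signals that set glucose output and lipid handling.

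The levels of the genes with the clearest separation between the pools were read beside the DNA in front of them. Shown are the 300 bases around the transcription start, 250 before and 50 after it, of Rgs16, which was the listed gene furthest apart between the pools, and of Rgs4 and Rgs5, which are chromosomal neighbours. The sequences are from RefSeq, build GRCr8, 5′ to 3′ along the gene, and all 10 listed genes had an entry. Rgs16 lies at chr13:68437870-68438169 on the plus strand, Rgs4 at chr13:84475835-84476134 on the minus strand and Rgs5 at chr13:84380827-84381126 on the plus strand. Capitals mark letters that match a searched motif on either strand.
Rgs16: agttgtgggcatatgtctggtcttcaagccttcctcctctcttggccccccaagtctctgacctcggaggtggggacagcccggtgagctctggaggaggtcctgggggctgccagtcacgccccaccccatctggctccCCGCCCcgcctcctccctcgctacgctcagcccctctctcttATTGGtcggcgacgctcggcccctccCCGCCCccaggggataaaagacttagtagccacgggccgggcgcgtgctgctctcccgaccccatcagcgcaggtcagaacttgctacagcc
Rgs4: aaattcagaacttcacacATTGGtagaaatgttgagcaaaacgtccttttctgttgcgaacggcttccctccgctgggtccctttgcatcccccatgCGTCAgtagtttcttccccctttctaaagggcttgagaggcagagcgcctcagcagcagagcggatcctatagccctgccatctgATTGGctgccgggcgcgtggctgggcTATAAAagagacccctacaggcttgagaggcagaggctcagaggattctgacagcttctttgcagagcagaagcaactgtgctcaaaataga
Rgs5: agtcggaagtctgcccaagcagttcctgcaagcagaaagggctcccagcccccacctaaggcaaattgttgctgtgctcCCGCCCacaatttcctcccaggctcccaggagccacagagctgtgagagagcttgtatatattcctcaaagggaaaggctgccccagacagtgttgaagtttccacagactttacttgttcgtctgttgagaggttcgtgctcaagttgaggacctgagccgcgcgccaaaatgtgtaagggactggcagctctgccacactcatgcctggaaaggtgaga

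The motifs searched on both strands were the cyclic AMP response element TGACGTCA and its half-site TGACG, the E-box CACGTG, the TATA box TATAAA, the GC box GGGCGG, the CCAAT box CCAAT and the forkhead motif GTAAACA. The half-site is part of the full element, so a match to the element is also a match to the half-site. The Rgs16 window held 2 GC boxes, at -110 and -42 from the start, and a CCAAT box at -68, where each position is the first base of the match. The Rgs4 window held a TATA box at -42, CCAAT boxes at -232 and -68 and a TGACG half-site at -153. The Rgs5 window held 1 GC box, at -171. A GC box is found in 33.1% of the 33469 RefSeq promoter windows of this length, a CCAAT box in 37.5%, a TATA box in 14.2% and the half-site in 21.2%. The full element, found in 1.83% of windows, was in none of the windows of the 10 genes, and neither was the forkhead motif (3.78%). The E-box, found in 6.42% of windows, was matched in the Rgs19 window. GC content was 66.3% in the Rgs16 window, 52.7% in that of Rgs4 and 54.3% in that of Rgs5, against a median of 51.7% over all windows. These matches describe letters in the reference and are not binding sites.

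Rgs16, an R4 protein that acts on Gi and Gq subunits, was the member that stood apart. Its log2 intensity was 6.18 and 6.47 on the lean arrays and 8.14 and 8.15 on the obese arrays. Both obese arrays lay far above both lean arrays, and the obese arrays were nearly equal. The lean pool averaged 6.32 ± 0.21 and the obese pool 8.14 ± 0.01 (SD of 2 arrays), a 3.52-fold higher level in obese liver. Taking each lean array with each obese array, 4 pairs in all, the fold ran from 3.17 to 3.92. On the linear scale this was 72.3 and 88.8 against 281 and 283. By the size of the difference Rgs16 ranked 19 among the 14506 genes, counted from the most obese-biased gene.

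A size rule was used to count genes. It asked for a factor of 1.5 between the pool means, for a distance of 0.25 (log2) or more between the closest arrays of the pools, and for a level in the higher pool no lower than 5.48, the median over all genes. By this rule 1 of the 9 members, Rgs16, was higher in the obese pool and 0 were lower. Of all genes 2.19% were higher and 2.43% lower, and because the list was chosen on this contrast nothing is read from the comparison. Rgs16 lay far inside the rule, and the member nearest to it from outside was Rgs4. The median difference of the 9 members was 0.09 (log2, obese minus lean) and that of all genes 0.03.

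**Figure D1:**
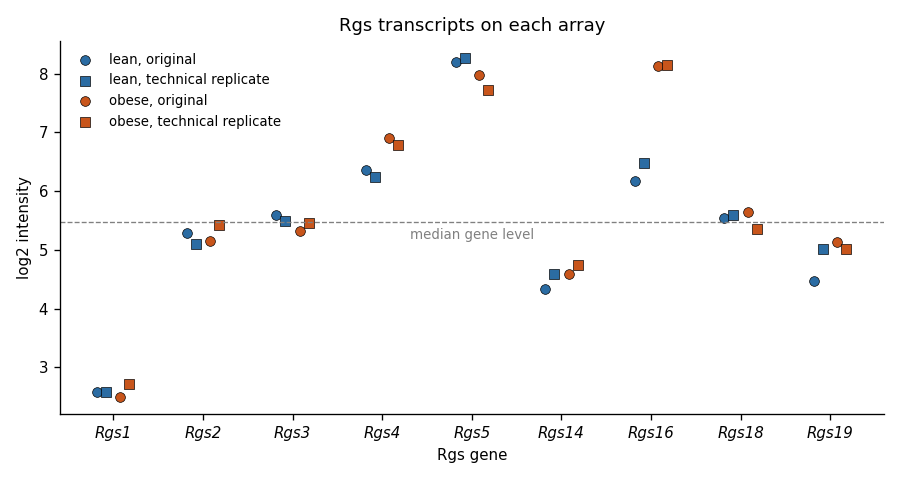
Log2 intensity (vertical axis) of the 9 measured Rgs genes (horizontal axis) on each of the 4 arrays, with lean arrays in blue, obese arrays in orange, circles for original and squares for technical replicate arrays. The Rgs16 points split into a lean pair at 6.18 and 6.47 and an obese pair at 8.14 and 8.15, and the dashed line marks the median gene level of 5.48.

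Rgs4, another R4 protein with Gi and Gq as targets, known best from brain and heart, lay in the same direction at a smaller size. Its log2 intensity was 6.36 and 6.25 on the lean arrays and 6.90 and 6.78 on the obese arrays, so the pools did not overlap. The difference was 0.54, or 1.45-fold in favour of the obese pool (1.35 to 1.57 over the array pairs), under the factor of 1.5. It passed the rule when the lean original array was left out, with a difference of 0.59, and when the obese technical replicate array was left out, with 0.60.

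Rgs5, an R4 protein used as a marker of pericytes, the contractile cells around small vessels, was the member furthest in the lean direction. Its log2 intensity was 8.20 and 8.27 on the lean arrays and 7.98 and 7.73 on the obese arrays. Every lean value lay above every obese value, and the obese arrays were 0.25 apart. The difference of -0.38 amounts to a 1.30-fold lower level in the obese pool (1.16 to 1.46 over the array pairs). Rgs3, a longer R4 protein that acts on Gi and Gq, was at 5.59 and 5.50 on the lean and at 5.33 and 5.46 on the obese arrays. Its pools were separated by only 0.04 between their nearest arrays, and the difference was -0.15.

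The pools' arrays therefore did not overlap for 4 members, with Rgs16 and Rgs4 higher and Rgs5 and Rgs3 lower in the obese pool. Over all genes both obese arrays lay above both lean arrays in 27.5% and below them in 18.5%.

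For the other 5 measured members the arrays of the pools overlapped. Rgs2, an R4 protein that prefers Gq, was at 5.29 and 5.10 on the lean and at 5.15 and 5.42 on the obese arrays. Rgs18, which is made mainly in platelets and their precursors, was at 5.54 and 5.59 on the lean and at 5.65 and 5.36 on the obese arrays. The obese arrays of Rgs18 enclosed both lean values, and its difference was -0.06.

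Rgs1, known from B lymphocytes and other immune cells, was dim on every array, with 2.58 on both lean arrays and 2.49 and 2.73 on the obese arrays. The deposited value of Rgs1 was the same to every digit on the lean arrays. Rgs14, an R12 protein that also binds Ras-family proteins and holds inactive Gi, was at 4.34 and 4.60 on the lean and at 4.58 and 4.75 on the obese arrays, a difference of 0.20 with overlapping pools. Rgs19, the RZ protein also called GAIP, was at 4.48 and 5.02 on the lean and at 5.14 and 5.01 on the obese arrays. The lean arrays of Rgs19 were 0.54 apart, more than its difference of 0.33 between the pools. In 4 of the 9 members, Rgs1, Rgs2, Rgs14 and Rgs19, both pools lay below the median gene level, and no detection call was used that would place them above background.

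By subfamily, the 7 measured R4 members ran from -0.38 to 1.82 with a median difference of 0.03, while R12 and RZ were each represented by 1 measured member. Outside the list, 8 further RGS genes were measured: Rgs8 of the R4 group, Rgs6, Rgs7, Rgs9 and Rgs11 of the R7 group, Rgs12 of the R12 group and Rgs17 and Rgs20 of the RZ group. None of these 8 reached the median gene level in either pool, and 0 passed the 1.5-fold rule in either direction. Their differences ran from -0.12 for Rgs11 to 0.30 for Rgs12, with a median of 0.04. Over all 17 measured RGS genes, 5 reached the median gene level and Rgs16 alone passed the rule.

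**Figure D2:**
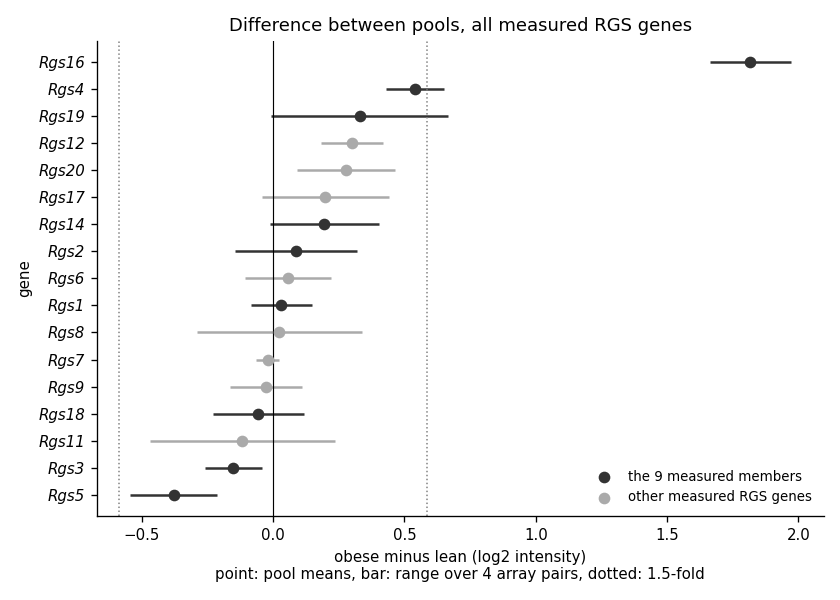
Difference between the pools (horizontal axis, obese minus lean, log2 intensity) for the 17 measured RGS genes (vertical axis), as the difference of pool means (points) with its range over the 4 array pairs (bars), listed members in dark and other RGS genes in light grey. Rgs16 stands at 1.82, beyond the dotted 1.5-fold line, and the next gene is Rgs4 at 0.54.

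Of the 10 listed genes 6 lie on rat chromosome 13, a feature that the choice of members did not use. The same chromosome holds 10 of the 20 genes of the R4, R7, R12 and RZ subfamilies, so this is a trait of the family. In the order of the RefSeq gene table (GRCr8), Rgs2, Rgs13, Rgs1, Rgs21 and Rgs18 follow each other, then come Rgs8 with Rgs16, Rgs5 with Rgs4, and Rgs7. Rgs13 and Rgs21 were not measured under a symbol of their own. Rgs5 and Rgs4 are adjacent protein-coding genes transcribed towards each other, and they differed in opposite directions, at -0.38 and 0.54. Rgs16 had a difference of 1.82 and the gene before it, Rgs8, one of 0.02, with 4.13 and 3.72 on the lean and 3.84 and 4.06 on the obese arrays. In the group of Rgs2, Rgs1 and Rgs18 the differences were 0.09, 0.03 and -0.06, and all 3 had overlapping pools.

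**Figure D3:**
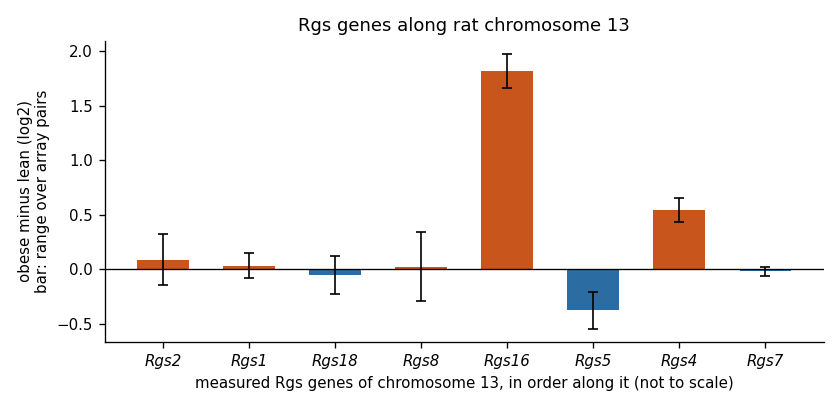
Difference between the pools (vertical axis, obese minus lean, log2 intensity) for the 8 measured Rgs genes of chromosome 13 in their order along it (horizontal axis, not to scale), with the range over the array pairs as error bars. The neighbours Rgs5 (-0.38) and Rgs4 (0.54) lie on opposite sides of 0, and Rgs8 beside Rgs16 lies at 0.02.

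The remaining parts of G protein signalling were taken as lists. Of 16 G alpha subunits, the direct targets of RGS proteins, 0 passed the 1.5-fold rule in either direction, and the median difference was 0.11. Among the Gq class, Gna11 was at 7.59 and 7.46 on the lean and at 7.88 and 7.91 on the obese arrays, and Gnaq at 7.28 and 7.37 against 7.54 and 7.18. Among the Gi class, Gnai2 was at 8.28 and 8.21 against 8.20 and 8.28, and Gnai3 at 9.66 and 9.52 against 9.80 and 9.75. The pools of Gna11 and Gnai3 did not overlap and those of Gnaq and Gnai2 did, and these 4 subunits were picked as the main RGS targets and not by the naming rule. Over all 16 subunits, both obese arrays lay above both lean arrays in 8 and below them in 2, against 27.5% and 18.5% of all genes.

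Of 15 measured G beta and gamma subunits 0 passed in either direction, and the median was 0.11. Both obese arrays lay above both lean arrays in 8 of these 15 and below them in 1, against 27.5% and 18.5% of all genes. Gng5, a gamma subunit named outside the rule, was at 6.12 and 6.16 on the lean and at 6.78 and 6.56 on the obese arrays. It passed as higher when the obese technical replicate array was left out and on the original arrays alone. In these settings the count of higher genes over all genes rose from 317 to 553 and 616. In either direction 0 passed among the 11 other regulators of G proteins and their receptors, arrestins included (median 0.08). The same held for the 15 genes whose proteins carry an RGS-like domain, such as the receptor kinases, axins and sorting nexins (median 0.04). Both obese arrays lay above both lean arrays in 0 of the 11 and 6 of the 15, and below them in 1 and 0. Of 14 effectors, the adenylyl cyclases, phospholipases C beta and inositol trisphosphate receptors, 0 passed either way and the median was -0.11. For 2 effectors both obese arrays lay above both lean arrays, and for 4 below them. The largest difference among the effectors was that of Adcy2, an adenylyl cyclase named after its value was seen, at -0.92 with both pools below the median gene level.

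Among these lists, that of the receptors had genes past the rule. Of 25 measured G-protein-coupled receptors of liver cells 3 were higher in the obese pool and 0 lower, with a list median of 0.11. Of all genes 2.19% were higher and 2.43% lower. The receptor list was chosen with earlier results of these data known, so nothing is read from the comparison. P2ry2, a Gq-coupled receptor for extracellular ATP and UTP, was at 8.05 and 7.91 on the lean and at 9.17 and 9.13 on the obese arrays, 2.25-fold higher (2.10 to 2.40). Adora1, the Gi-coupled adenosine receptor, was at 5.52 and 5.21 against 6.38 and 6.54. Its fold of 2.14 (1.82 to 2.51) has no firm size, because the lean level of 5.37 lay below the median gene level. Adra1b, the Gq-coupled alpha-1B adrenoceptor of hepatocytes, was at 6.07 and 6.16 against 6.85 and 6.68, or 1.57-fold higher (1.43 to 1.72). Adra1b did not pass the rule with cyclic loess, with an offset of 16, without the obese original array or on the technical replicate arrays alone, whereas P2ry2 and Adora1 passed under all alternatives run. The glucagon receptor Gcgr and the vasopressin receptor Avpr1a, both named for their role, did not pass the rule, with differences of 0.38 and 0.05.

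**Figure D4:**
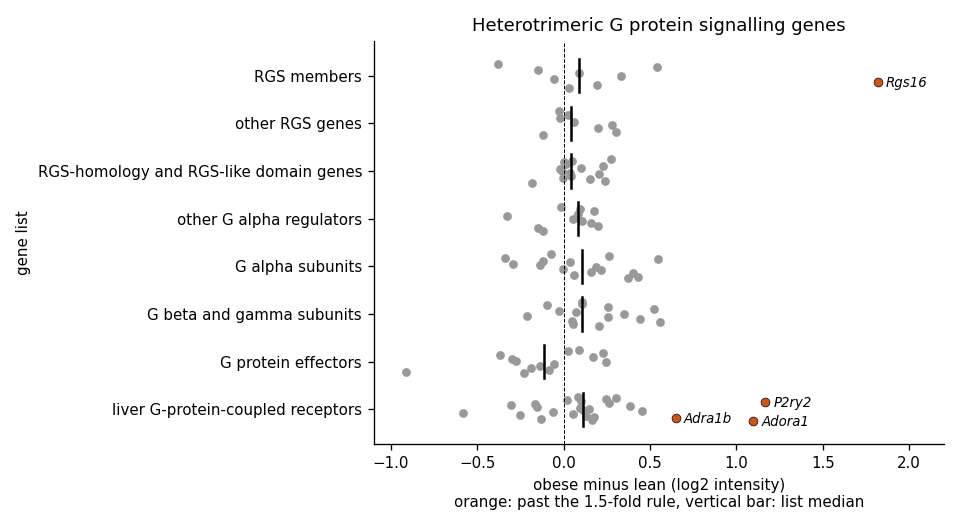
Difference between the pools (horizontal axis, obese minus lean, log2 intensity) for the genes of 8 lists of G protein signalling (vertical axis), 1 point per gene, orange where a gene passed the 1.5-fold rule, with the list median as a vertical bar. Rgs16 and the receptors P2ry2, Adora1 and Adra1b are the orange points, and the medians lie between -0.11 and 0.11.

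The tissue in the pools was checked by marker genes, because several RGS genes belong to cells other than hepatocytes, and in a pool fewer cells of a type and less RNA per cell cannot be told apart. The summed intensity of 8 hepatocyte markers was 59964 and 62625 on the lean and 67555 and 67840 on the obese arrays. Skeletal muscle transcripts differed most: 14 of 14 markers were lower in the obese pool by the rule. Their sum was 33550 and 34791 on the lean arrays and 492 and 508 on the obese arrays. Of all genes 2.43% were lower and 2.19% higher, and the same shares stand beside the counts of the marker lists below. Muscle markers were thus abundant in the lean pool, and their part in the Rgs differences, including the lower Rgs5 in the obese pool, was not tested.

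Of 9 mural cell markers, which mark the pericytes and smooth muscle that make Rgs5, 1 was lower and 0 higher, and the sum was 774 and 748 on the lean and 725 and 743 on the obese arrays. Myh11, the smooth muscle myosin, was the lower one, at 5.64 and 5.50 against 4.70 and 5.11, and it did not pass with an offset of 16, without the obese original array or on the technical replicate arrays alone. Kcnj8 and Abcc9, which encode subunits of the potassium channel of pericytes and are named outside the rule after their values were seen, differed in opposite directions and did not pass. Kcnj8 was at 6.43 and 6.14 against 6.61 and 6.50, and Abcc9 at 6.70 and 6.84 against 6.36 and 6.30. Neither overlapped between the pools, and Abcc9 lay in the same direction as Rgs5 and Kcnj8 in the other. Of the 9 mural cell markers both obese arrays lay above both lean arrays in 1 and below them in 2. The rest, Pdgfrb, Cspg4 and Notch3 among them, overlapped, and the list median was -0.02. The part of mural cells in the 1.30-fold lower Rgs5 was not tested.

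Stellate cell markers summed to 1655 and 1779 on the lean and 907 and 823 on the obese arrays, with 2 of 10 lower, desmin (Des) and decorin (Dcn), 0 higher and a list median of -0.09. Desmin, which muscle makes too, was at 9.12 and 9.38 against 5.04 and 5.34, and decorin, a matrix proteoglycan, at 8.38 and 8.47 against 6.79 and 6.26. Without these 2, the other 8 stellate markers summed to 767 and 760 on the lean and 763 and 706 on the obese arrays, with a median difference of -0.05. That sum hides the dim Lum, named outside the rule after its values were seen. Lum was at 4.43 and 4.51 on the lean and at 2.45 and 2.28 on the obese arrays. Both its pools lay below the median gene level, and it passed as lower when the level filter was dropped. The 12 measured macrophage markers summed to 4767 and 5079 against 4406 and 3818, with 0 past the rule and a median of -0.25. Their differences ran from -0.33 to -0.10. Both obese arrays lay below both lean arrays in 8 of the 12 and above them in 0, against 18.5% and 27.5% of all genes. The 10 lymphocyte markers summed to 299.5 and 272 against 268 and 268, and the 4 measured platelet markers to 100.2 and 99.1 against 81.8 and 90.6, with 0 past the rule in both lists. Both obese arrays lay below both lean arrays in 3 of the 10 lymphocyte and 2 of the 4 platelet markers, and above them in 0. In each of these 2 lists only 1 marker reached the median gene level. The 6 measured endothelial markers summed to 1357 and 1340 against 1170 and 1078 with 0 past the rule, although Kdr passed as lower without the obese original array. Endothelial differences ran from -0.49 to -0.03, and both obese arrays lay below both lean arrays in 4 of the 6 and above them in 0. Of 6 cardiac markers, which summed to 194 and 205 against 105 and 125, 2 were lower, Actc1 and Myh6. Actc1 was at 6.17 and 6.41 against 3.92 and 4.63, and Myh6 at 5.61 and 5.82 against 4.70 and 4.87. The other 4, Tnnt2, Nppa, Nppb and Tnni3, had differences of -0.09 to 0.04, with both pools below the median gene level. No marker of these lists was higher in the obese pool by the rule, and the part of cell composition in the Rgs16 difference was not tested.

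**Figure D5:**
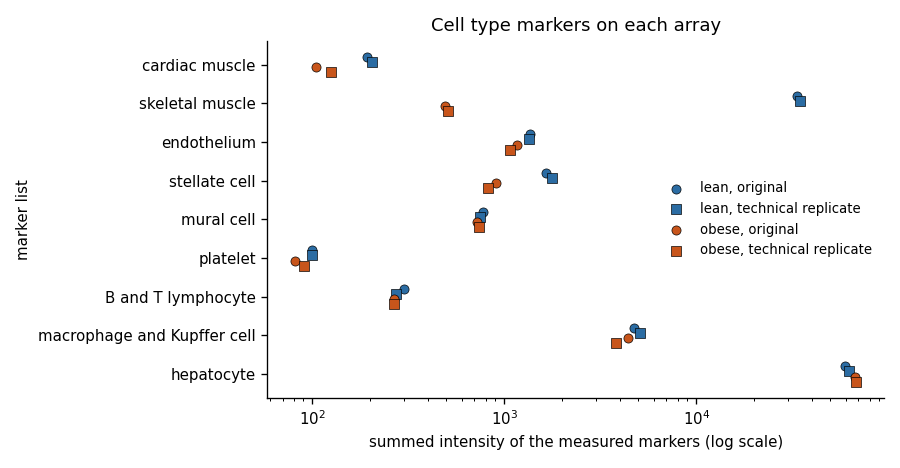
Summed linear intensity (horizontal axis, log scale) of the measured markers of 9 cell types (vertical axis) on each array, lean in blue and obese in orange. Skeletal muscle shows the widest gap, with 33550 and 34791 on the lean arrays and 492 and 508 on the obese arrays.

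The genes whose pattern over the 4 arrays was nearest to that of Rgs16, by Euclidean distance between log2 values centred on each gene's mean and among genes that reached the median level, were Il17rb, Hamp and Scd, at distances of 0.22, 0.23 and 0.23. Il17rb, a subunit of interleukin-17 family receptors, was at 6.83 and 6.86 on the lean and at 8.75 and 8.60 on the obese arrays. Scd, the desaturase that makes oleate, was at 10.62 and 10.63 against 12.52 and 12.55. Nearest to Rgs5 were Rab27a, Rnf39 and Itga7, at distances of 0.02, 0.02 and 0.03, with differences of -0.38, -0.39 and -0.36. These likenesses rest on 2 pools and describe these arrays only.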

How the data were processed

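Each pool of liver RNA, 1 lean and 1 obese and each of 4 rats, was labelled from 100 ng and hybridised to 2 arrays, per the labels' protocols. The authors deposited 1 linear intensity for each probe set and array, made with RMA, per the submitters' processing notes. The step to a linear scale, the RMA version and the build are not given in the sources used here. Intensities ran from 2.31 to 14288, with array medians of 25.7 to 27.7. Folds of very dim and very bright genes may be understated on such arrays, which was not measured here.

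The log2 of each value was taken, with no further normalisation. Of 29214 probe sets, 15310 carried 1 gene symbol, 323 several and 13581 were not listed in the platform annotation. The RefSeq table of GRCr8 held 15279 of the gene identifiers and changed 0 symbols. The probe set with the highest mean was taken per gene, which left 14506 genes. Levels of a pool are means over its 2 arrays. With 1 pool per phenotype the animals cannot be tested, and no p-value is given. The size rule was tested on simulated data, with shifts well past it in genes well above the median gene level. Genes close to the rule and dim genes were not covered by that test.

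The 10 genes, the gene lists and the rules were chosen with earlier results of these data known. Named genes are the members, up to 6 genes per pathway list and 3 per marker list past the 1.5-fold rule, and the 3 nearest patterns of the members with the largest difference in each direction. Genes named outside this rule are marked in the text. Not marked there are Kdr, the cardiac markers that did not pass, the further RGS genes and the chromosomal neighbours. Of the skeletal muscle markers, all of which passed, only sums are given. The alternatives were an offset of 16 before the log2, cyclic loess and quantile normalisation (limma 3.58.1), no level filter, no gap between arrays, the mean of a gene's probe sets, each array left out in turn, and the original or the technical replicate arrays alone.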

Additional observations from a re-analysis of the deposited data

How the results depend on the processing

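Rgs16 stayed past the 1.5-fold rule under every alternative run, with differences of 1.63 (offset of 16) to 1.97 (without the lean technical replicate array). The count of members higher in the obese pool ran from 1 to 2 when an array was left out, as Rgs4 joined Rgs16 without the lean original or the obese technical replicate array, and the count of lower members was 0 throughout. The median difference of the members ran from 0.031 to 0.22 when an array was left out, and the technical replicate arrays alone gave 0.15. Rgs4 and Rgs14 stayed above 0, and Rgs3 and Rgs5 below 0, under all alternatives, whereas Rgs1, Rgs2, Rgs18 and Rgs19 took either sign. The cause was not tested. Over all genes 317 were higher and 352 lower, against 227 and 400 with cyclic loess, and 553 were higher without the obese technical replicate array and 616 on the original arrays alone. No paired analysis was possible because each phenotype is 1 pool and no test was made. Signal over background limits the dim members, Rgs1 above all, and no scanner values were used.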

Other observations

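Beside the Rgs genes of chromosome 13 lie genes of other function. Of the protein-coding genes within 2 places of a listed Rgs gene there, 7 outside the Rgs family were measured: Ro60, Uchl5, Nuf2, Ccdc190, Hsd17b7, Npl and Brinp3. None passed the 1.5-fold rule. In 3 of the 7, Uchl5, Nuf2 and Hsd17b7, both obese arrays lay above both lean arrays, as in 27.5% of all genes, and in the other 4 the arrays overlapped. Uchl5, a deubiquitinating enzyme next to Rgs2, was at 6.61 and 6.68 on the lean and at 7.15 and 6.76 on the obese arrays. Nuf2, a kinetochore gene next to Rgs5, was at 2.41 and 2.28 against 3.44 and 3.02, with both pools below the median gene level. Hsd17b7, an enzyme of cholesterol and sex steroid synthesis placed 2 genes beyond Rgs4, was at 7.53 and 7.49 against 7.92 and 7.57.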
